A study of Mus musculus with 8 samples.

Results

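The cGAS-STING pathway is the route by which a cell recognises DNA in its cytosol, and its messenger RNA was followed here in Lacun3 cells, a line of mouse lung adenocarcinoma. Its members were taken by gene symbol: the sensor Cgas, the hydrolase Enpp1, the adaptor Sting1, the kinases Tbk1 and Ikbke, the transcription factors Irf3 and Irf7, and the nucleic acid enzymes Trex1 and Samhd1. All 9 symbols were found once each among the 56884 annotated genes of the count table. Of these 9 genes, 8 had counts and were among the 13707 genes tested, and Trex1 had 0 counts in every library. Bulk RNA sequencing compared 4 libraries of the parental line (genotype STK11 WT) with 4 libraries of a derived line made by CRISPR targeting of Stk11 (STK11 KO). LKB1, the product of Stk11, is a tumour suppressor and the upstream kinase of AMPK. Both lines were untreated, grew in the same serum-containing medium, and were harvested while dividing logarithmically. Replicates were stated to be biological and independent, but they came from 1 parental and 1 edited line, so that p-values measure the spread between cultures and not between edited lines. The sources used here do not say whether the edited line was a single clone. The comparison asked which transcripts differed inside the tumour cells between the edited and the parental line. With 1 line of each kind, loss of Stk11 cannot be told apart from other differences between the lines.

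Cyclic GMP-AMP synthase (cGAS) binds double-stranded DNA and makes the messenger cGAMP, which binds STING on the endoplasmic reticulum. STING then moves to the Golgi and recruits TBK1 and the related kinase IKK-epsilon, encoded by Ikbke, which phosphorylate IRF3. IRF3, and later IRF7, enter the nucleus and induce type I interferons and chemokines. ENPP1 hydrolyses cGAMP outside the cell, TREX1 degrades cytosolic DNA, and SAMHD1 hydrolyses deoxynucleotides and limits the release of DNA from stalled replication forks. In human lung cancer cells that lack LKB1, the STING gene has been described as epigenetically silenced.

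Libraries held 18837263 to 21101904 counts in the parental and 21441601 to 25715008 among knockout libraries (two-sided p = 0.0286 by exact permutation, the smallest this design allows). Levels are given as CPM, counts scaled to library size, after scaling between libraries, and 1 count was worth 0.0388 to 0.0515 CPM. The targeted gene was lower in every knockout library: Stk11 had 66.3 ± 1.79 CPM (SD, n = 4) in parental and 34.7 ± 0.853 CPM (SD, n = 4) in knockout libraries. This was a log2 fold change of -0.93 ± 0.06 (SE; adjusted p = 2.03e-12 by edgeR's quasi-likelihood test). The edit itself cannot be seen in counts of a whole gene. Knockout replicate 3 stood apart from the other knockout libraries: the chi-square of counts per degree of freedom was 13.0 to 18.9 for its pairs and 3.12 to 8.90 for all other pairs within a genotype. The 5 epithelial markers summed to 8158 to 8589 CPM in parental and 7699 to 8607 CPM in knockout libraries. Singly they went both ways, with log2 fold changes of -0.49 for Krt18, -0.30 for Epcam and 0.22 for Krt19 (adjusted p = 8.14e-07, 0.0150 and 0.00213 by edgeR's quasi-likelihood test). Krt8 (-0.12) and Cdh1 (0.02) had adjusted p of 0.0874 and 0.794 by the same test. Of 6 leukocyte and macrophage markers, 4 lay under 1 CPM, with Adgre1 at 0, and their sum was 77.5 to 88.9 CPM in parental and 43.5 to 56.5 CPM in knockout libraries, nearly all of it from Cd68 and Cd14. T and B cell markers reached at most 0.324 CPM, with Cd3d and Ms4a1 among those at 0. Fibroblast markers summed to 3.04 to 4.81 CPM in parental and 2.03 to 2.97 CPM in knockout libraries, and endothelial markers to 1.05 to 1.85 CPM and 3.42 to 4.81 CPM, with Lum and Kdr at 0. Most of the fibroblast sum was Col1a1 (means of 3.68 and 2.32 CPM) and most of the endothelial sum was Cdh5 (1.36 and 4.17 CPM). The part of these markers in the results was not tested.

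The knockout cells carried less mRNA for the sensor, the adaptor, Irf3 and 2 enzymes that limit the pathway, and slightly more for the kinases. Of the 8 tested members, 5 fell (Cgas, Enpp1, Sting1, Irf3 and Samhd1), 2 rose (Tbk1 and Ikbke) and Irf7 did not pass. A gene is said to rise or fall when edgeR's quasi-likelihood test gave an adjusted p under 0.05. Passing was common: of all 13707 tested genes 68.0% did, with 34.4% higher and 33.6% lower in knockout cells. Enpp1 and Samhd1 fell more than 2-fold, as did 9.41% of all tested genes. The parental and knockout values did not overlap in 6 of the 8 members, against 60.6% of all tested genes. The median log2 fold change of the 8 members was -0.27, beside 0.01 over all tested genes. Without knockout replicate 3 the counts were again 5 members lower and 2 higher. In bulk RNA, fewer cells that express a gene and less RNA of it per cell cannot be told apart.

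**Figure D1:**
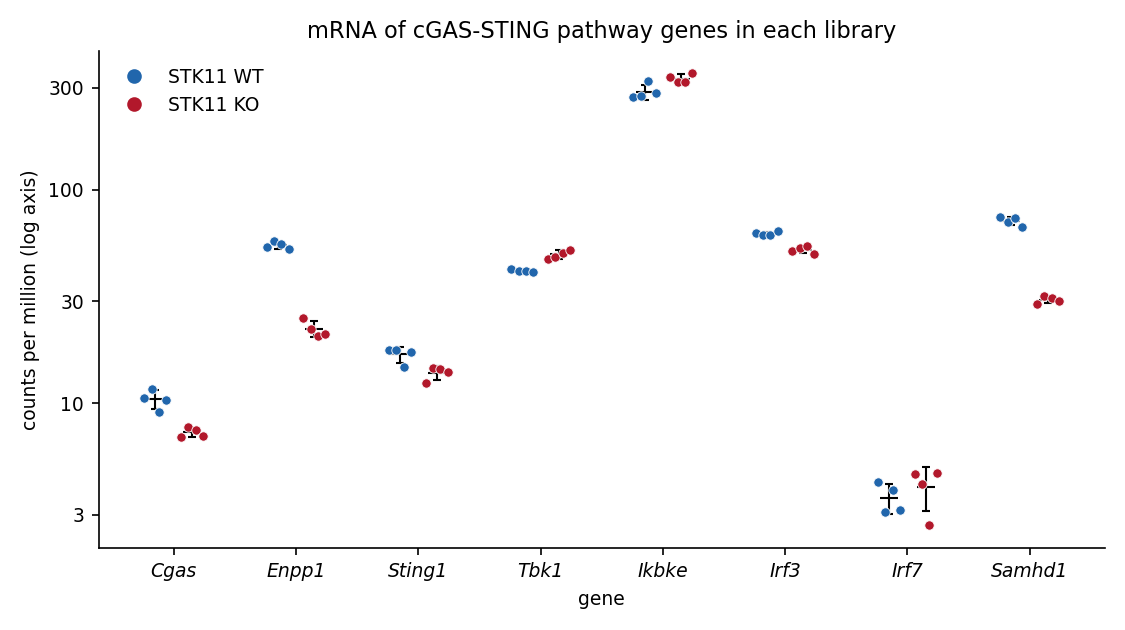
CPM (log axis) of the 8 detected members in each of 4 STK11 WT and 4 STK11 KO libraries. Points are libraries, and crosses with bars are the mean and SD of each genotype. Enpp1 and Samhd1 separate widely (54.8 against 22.3 and 71.3 against 30.5 CPM), Sting1 narrowly, and Ikbke and Irf7 overlap.

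To show what lies in front of the genes that moved most and of the kinases that rose together, the 250 bases before the annotated start of Enpp1, Samhd1, Tbk1 and Ikbke are printed from RefSeq's promoter table. That table uses GRCm38.p6, an earlier build than the GRCm39 of the counts, so its coordinates are not those of the count table. All 4 genes lie on the minus strand, at chr10:24712160-24712409, chr2:157135097-157135346, chr10:121586795-121587044 and chr1:131279564-131279813 in this order. Sequences run 5′ to 3′ on the gene's strand, and capitals mark CpG dinucleotides, the sites at which DNA methyltransferases act.
Enpp1: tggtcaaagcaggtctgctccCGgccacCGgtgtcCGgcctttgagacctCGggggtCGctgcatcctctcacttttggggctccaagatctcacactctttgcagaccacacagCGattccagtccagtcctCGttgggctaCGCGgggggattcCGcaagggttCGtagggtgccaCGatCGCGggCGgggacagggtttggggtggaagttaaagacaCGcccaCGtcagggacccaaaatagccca
Samhd1: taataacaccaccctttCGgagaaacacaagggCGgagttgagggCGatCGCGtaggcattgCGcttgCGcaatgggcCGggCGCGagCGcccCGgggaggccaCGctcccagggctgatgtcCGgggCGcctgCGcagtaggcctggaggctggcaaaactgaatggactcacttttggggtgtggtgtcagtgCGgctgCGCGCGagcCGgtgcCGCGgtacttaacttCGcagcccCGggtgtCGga
Tbk1: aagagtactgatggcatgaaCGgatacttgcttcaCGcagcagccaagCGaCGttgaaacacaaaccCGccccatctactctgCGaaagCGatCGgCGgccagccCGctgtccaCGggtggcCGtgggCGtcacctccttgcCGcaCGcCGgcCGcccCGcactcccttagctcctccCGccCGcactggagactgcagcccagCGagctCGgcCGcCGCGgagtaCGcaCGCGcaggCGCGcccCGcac
Ikbke: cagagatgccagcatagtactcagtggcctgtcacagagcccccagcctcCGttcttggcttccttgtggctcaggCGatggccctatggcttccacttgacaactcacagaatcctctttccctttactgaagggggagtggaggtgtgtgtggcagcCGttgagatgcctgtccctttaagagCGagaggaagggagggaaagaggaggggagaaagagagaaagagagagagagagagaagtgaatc
Tbk1 has 31 CpG sites in this window, Samhd1 26, Enpp1 17 and Ikbke 4. The CpG content observed over that expected from C and G content is 1.09, 0.99, 0.73 and 0.23 in this order, beside a median of 0.37 over the 32851 promoter windows compared. Cgas has 9 CpG sites and a ratio of 0.58, Irf3 has 16 and 0.77, and Irf7 has 3 and 0.16. The ratio lay above the 75th percentile of all windows (0.72) for Tbk1, which rose, and for Samhd1, Irf3 and Enpp1, which fell. It lay below that for Ikbke, which rose, for Cgas, which fell, and for Irf7, which did not pass. Any link between CpG content and direction was not tested. No methylation was measured in these libraries. 4 motifs were searched on both strands, the interferon response element core GAAANNGAA, the STAT site TTCNNNGAA, the cAMP response element TGACGTCA and GGANTTTCC of the NF-kB site, which do not contain one another. They occur in 7.13%, 7.02%, 1.55% and 1.07% of all windows in this order. Among the 8 members whose windows were searched, the sole match was TTCNNNGAA in the Samhd1 window, 235 bases before the start. The Sting1 window was not analysed here.

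Cgas, the sensor, was low in parental cells and lower in the knockout. The gene (ENSMUSG00000032344.18) lies on the minus strand of chromosome 9 from position 78337808 to 78350519 (GRCm39). Parental libraries had 10.6, 11.7, 9.08 and 10.4 CPM and knockout libraries 6.94, 7.73, 7.5 and 7.0 CPM. Every knockout value lay below every parental value. The means were 10.4 ± 1.07 CPM (SD, n = 4) and 7.29 ± 0.384 CPM (SD, n = 4), the log2 fold change was -0.51 ± 0.11 (SE), and 70.1% of the parental level remained (95% interval 60.1% to 81.6%; edgeR quasi-likelihood test, adjusted p = 0.000191). These values rest on 140 to 252 counts per library. In the annotation used here (GENCODE M21), 4.87% of the exon bases of Cgas overlap the predicted gene Gm8093 on the other strand, and no source used here gives the strand setting of the counting.

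Enpp1, which removes cGAMP outside the cell, had the largest fall among the members. The gene (ENSMUSG00000037370.14) lies on the minus strand of chromosome 10 from 24513812 to 24588057. Its level was 53.6, 57.2, 55.9 and 52.8 CPM in parental and 25.1, 22.1, 20.7 and 21.2 CPM in knockout libraries. The genotypes were far apart, and the lowest parental library held more than 2-fold the CPM of the highest knockout library. From 54.8 ± 2.04 to 22.3 ± 1.96 CPM (SD, n = 4 each), the log2 fold change was -1.30 ± 0.07 (SE), leaving 40.5% (95% interval 36.7% to 44.8%; edgeR quasi-likelihood test, adjusted p = 1.48e-13). The size of this change exceeded that of 89.2% of all tested genes. Genes whose 8 values followed those of Enpp1 most closely, by the root mean square difference of log2 CPM after centring each gene, were Rab6b (0.0520), Cgn (0.0600) and Ston2 (0.0607). Their log2 fold changes were -1.31, -1.27 and -1.35 in this order. Centring was over both genotypes, so the measure favours genes with a similar fold change. Cgn encodes the tight junction protein cingulin, Rab6b a small GTPase of Golgi traffic and Ston2 an endocytic adaptor.

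Sting1, the adaptor that cGAMP binds, fell by less. The gene (ENSMUSG00000024349.11) lies on the minus strand of chromosome 18 from 35866732 to 35873607. Parental libraries had 17.7, 17.8, 14.8 and 17.4 CPM and knockout libraries 12.4, 14.7, 14.4 and 14.0 CPM. The genotypes touched without overlapping, since parental replicate 3 lay just above knockout replicate 2. The means were 16.9 ± 1.40 and 13.9 ± 1.03 CPM (SD, n = 4 each), the log2 fold change was -0.28 ± 0.09 (SE), and 82.4% remained (95% interval 72.5% to 93.5%; edgeR quasi-likelihood test, adjusted p = 0.00788). Among all tested genes 39.9% changed by less. The knockout libraries thus kept most of their Sting1 mRNA, and at the lower end of the interval 72.5% of it.

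Tbk1, the kinase that phosphorylates STING and IRF3, rose in every knockout library. The gene (ENSMUSG00000020115.4) lies on the minus strand of chromosome 10 from 121382360 to 121422692. Its parental values were 42.4, 41.7, 41.5 and 41.3 CPM and its knockout values 47.4, 48.5, 50.4 and 52.4 CPM. The groups did not overlap, and the parental values lay within about 1 CPM of each other. The means were 41.7 ± 0.484 and 49.7 ± 2.21 CPM (SD, n = 4 each), with a log2 fold change of 0.25 ± 0.06 (SE), or 119% of the parental level (95% interval 109.5% to 129.7%; edgeR quasi-likelihood test, adjusted p = 0.000631). The genes closest to it over the 8 libraries by the same measure were Ythdf3 (0.0227), Emsy (0.0274) and Ap1g1 (0.0277). Their log2 fold changes were 0.24, 0.26 and 0.22 in this order, a likeness that the measure favours. Ythdf3 encodes an m6A reader, Emsy a BRCA2-binding protein and Ap1g1 a subunit of the AP-1 clathrin adaptor.

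Ikbke, which encodes IKK-epsilon, was the most abundant member and its rise was the least secure. The gene (ENSMUSG00000042349.14) lies on the minus strand of chromosome 1 from 131182080 to 131207344. Parental libraries had 270.1, 273, 321 and 282 CPM and knockout libraries 336, 317, 320 and 350.3 CPM. The groups overlapped, because parental replicate 3 lay above knockout replicates 2 and 3. The means were 287 ± 23.6 and 331 ± 15.2 CPM (SD, n = 4 each) and the log2 fold change was 0.21 ± 0.06 (SE), or 115% (95% interval 106% to 126%; edgeR quasi-likelihood test, adjusted p = 0.00379). With library size alone as the scaling it was 0.12 and did not pass (adjusted p = 0.0673, and between 0.000494 and 0.0673 across alternatives), and by exact permutation of the 8 values the two-sided p was 0.0857 (n = 4 and 4).

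Irf3, the factor that the kinases activate, fell by about as much as Tbk1 rose. The gene (ENSMUSG00000003184.16) lies on chromosome 7, plus strand, from 44647072 to 44652272. Its values were 62.3, 61.5, 61.4 and 64.0 CPM in parental and 51.8, 53.0, 54.5 and 50.05 CPM in knockout libraries. No knockout library reached a parental value. The means were 62.3 ± 1.23 and 52.4 ± 1.90 CPM (SD, n = 4 each), the log2 fold change was -0.25 ± 0.06 (SE), and 84.1% remained (95% interval 77.6% to 91.1%; edgeR quasi-likelihood test, adjusted p = 0.000409). Of its exon bases 2.56% overlap Bcl2l12 on the other strand, a gene at 9.01 ± 1.30 and 10.4 ± 0.567 CPM (SD, n = 4 each).

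Irf7, the interferon-induced relative of Irf3, did not pass the test and was split among the knockout libraries. The gene (ENSMUSG00000025498.16) lies on the minus strand of chromosome 7 from 140842619 to 140846394. Parental libraries had 4.29, 3.11, 3.90 and 3.14 CPM and knockout libraries 4.66, 4.19, 2.68 and 4.73 CPM. Knockout replicate 3 was the lowest of all 8 libraries, and replicates 1 and 4 of the knockout were the highest. The means were 3.61 ± 0.581 and 4.06 ± 0.953 CPM (SD, n = 4 each), and the log2 fold change was 0.15 ± 0.18 (SE; 95% interval -0.22 to 0.52; edgeR quasi-likelihood test, adjusted p = 0.471). Without knockout replicate 3 it was 0.32 (adjusted p = 0.0665, and between 0.0665 and 0.776 across alternatives). With 61 to 102 counts per library, a rise to 143% of the parental level or a fall to 85.9% lies inside the interval. Of its exon bases 1.19% overlap Phrf1 on the other strand, a gene at 95 ± 2.26 and 84.0 ± 6.77 CPM (SD, n = 4 each).

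Samhd1, the deoxynucleotide hydrolase, fell almost as far as Enpp1. The gene (ENSMUSG00000027639.17) lies on the minus strand of chromosome 2 from 156939453 to 156977185. It had 74.1, 70.3, 73.6 and 67.1 CPM in parental and 29.2, 31.6, 31.2 and 30.2 CPM in knockout libraries. The 4 knockout values were close together and all far below the parental ones. The means were 71.3 ± 3.26 and 30.5 ± 1.06 CPM (SD, n = 4 each), the log2 fold change was -1.22 ± 0.06 (SE), and 42.9% remained (95% interval 39.3% to 46.8%; edgeR quasi-likelihood test, adjusted p = 3.93e-14). Its change was larger than that of 88.0% of all tested genes.

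Trex1, the cytosolic DNA exonuclease, is listed at 0 counts in all 8 libraries, and the value is given as a listing, not as a level. The gene (ENSMUSG00000049734.10) lies on the minus strand of chromosome 9 from 108887001 to 108888802, and 3 counts would have been 0.117 to 0.155 CPM in a library. In GENCODE M21, 100% of its exon bases lie inside exons of Atrip on the same strand, a gene of the DNA damage checkpoint that had 14.4 ± 0.551 CPM in parental and 13.4 ± 1.16 CPM in knockout libraries (SD, n = 4 each; log2 fold change -0.11 ± 0.09, SE; edgeR quasi-likelihood test, adjusted p = 0.270). Among 126 protein-coding genes whose exons lie wholly inside same-strand exons of another gene, 92 (73.0%) had 0 counts in all libraries. The share was 27.2% (5868 of 21540) over all protein-coding genes matched by identifier, and 4 of 15 where the overlap was on the opposite strand alone. No source used here says how reads that fall on 2 genes were counted, and the part of that step in the zeros was not tested.

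**Figure D2:**
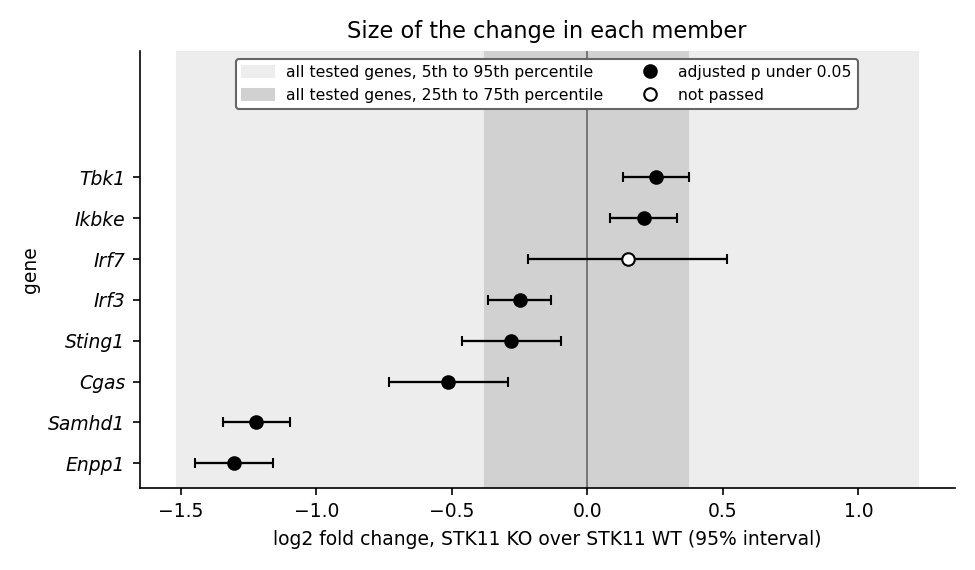
Log2 fold change (STK11 KO over STK11 WT) of the 8 tested members with 95% intervals from edgeR, filled where the adjusted p was under 0.05. Shading spans the 5th to 95th and the 25th to 75th percentile of all 13707 tested genes. Enpp1 (-1.30), Samhd1 (-1.22) and Cgas (-0.51) lie outside the inner band, and the other 5 members lie within it.

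Scaled also to exon length, as RPKM, that is CPM per kilobase of exon,, the members kept a similar order in both genotypes. In parental libraries the mean RPKM was 31.8 for Ikbke, 18.1 for Irf3, 10.7 for Tbk1, 7.79 for Samhd1, 6.17 for Sting1, 5.35 for Enpp1, 2.53 for Cgas and 0.956 for Irf7. Neighbours in this order had values that did not overlap, except Sting1 and Enpp1, whose parental values overlapped. In knockout libraries the RPKM was 36.7 for Ikbke, 15.2 for Irf3, 12.7 for Tbk1, 5.06 for Sting1, 3.34 for Samhd1, 2.17 for Enpp1, 1.77 for Cgas and 1.08 for Irf7, with no overlap between neighbours. Sting1 and Samhd1 changed places: Samhd1 mRNA was above Sting1 in parental and below it in knockout libraries. The kinases and Irf3 were the most abundant members per length in both genotypes, and the sensor and Irf7 the least.

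Ratios of 2 members within a library, which do not depend on scaling between libraries, gave 4 comparisons. The Enpp1 to Cgas ratio, hydrolase over synthase, per exon length was 2.04, 1.97, 2.47 and 2.05 in parental and 1.45, 1.15, 1.11 and 1.22 in knockout libraries. Every knockout library had a lower ratio, with means of 2.13 ± 0.230 and 1.23 ± 0.153 (SD, n = 4 each) and a log2 difference of -0.79 (exact permutation test, two-sided p = 0.0286, 0.0571 adjusted over 4 ratios). The Sting1 to Cgas ratio was 2.52, 2.29, 2.46 and 2.52 in parental and 2.69, 2.85, 2.90 and 3.02 in knockout libraries. It was higher in every knockout library, with means of 2.45 ± 0.11 and 2.87 ± 0.138 (SD, n = 4 each) and a log2 difference of 0.23 (exact permutation test, two-sided p = 0.0286, 0.0571 adjusted). Without parental replicate 2 this difference was 0.20 (exact permutation test, two-sided p = 0.0571). The smallest p that 4 against 4 libraries allow is 0.0286, and both ratios reached it. With 2 of 4 ratios at this value the adjusted p is 0.0571 however large the difference. Neither ratio could therefore pass after adjustment. The Ikbke to Tbk1 ratio was 2.98 ± 0.263 and 2.89 ± 0.136 (SD, n = 4 each; exact permutation test, two-sided p = 0.629, 0.629 adjusted), and the Irf7 to Irf3 ratio 0.0528 ± 0.00882 and 0.0712 ± 0.0186 (SD, n = 4 each; exact permutation test, two-sided p = 0.143, 0.190 adjusted). Both overlapped between genotypes.

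The genes around the members were taken from 10 lists by role, 118 genes in all, of which 94 were tested. Of these, 27 rose, 32 fell and 35 did not pass, so 62.8% passed against 68.0% of all tested genes, and their median log2 fold change was -0.03. Leaving out knockout replicate 3 moved no list's number of risers or fallers by over 1.5 times. Single calls did change: without that library Usp18 and Ifnar2 no longer passed, and Cxcl10, Stat2, Sec24c and Tmed2 did. The adjusted p-values in the next paragraphs are from edgeR's quasi-likelihood test and are adjusted over all tested genes.

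Adaptors of TBK1 and IKK-epsilon moved both ways. Of 5 tested, 2 rose, 2 fell and Azi2 did not pass (median log2 fold change -0.08). Tbkbp1, a scaffold that binds TBK1, rose from 36.1 ± 1.21 to 56.5 ± 3.06 CPM (SD, n = 4 each), a log2 fold change of 0.65 ± 0.06 (SE, adjusted p = 3.44e-09). Optn, an autophagy receptor phosphorylated by TBK1, fell from 52.4 ± 2.43 to 36.2 ± 2.77 CPM (log2 fold change -0.53 ± 0.07, adjusted p = 2.39e-07). Tank rose by 0.19 on the log2 scale (adjusted p = 0.0157) and Traf3 fell by 0.15 (adjusted p = 0.0429). Tank did not pass without knockout replicate 2 (adjusted p = 0.0600) or parental replicate 2 (0.0521). Traf3 did not pass without any one of knockout replicates 1, 2 and 4 (adjusted p = 0.150, 0.0811 and 0.0741) or parental replicates 1, 2 and 3 (0.0926, 0.137 and 0.0639). Across alternatives the adjusted p lay between 0.00206 and 0.188 for Tank and between 0.00635 and 0.150 for Traf3.

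Genes of STING traffic, palmitoylation and turnover were spread in the same way, with 8 of 19 tested higher, 6 lower and 5 not passing (median log2 fold change 0.07). Npc1, the lysosomal cholesterol transporter described as a STING cofactor in lysosomal degradation, rose from 74.0 ± 0.802 to 106 ± 9.68 CPM (log2 fold change 0.52 ± 0.06, adjusted p = 1.19e-07). Atg9a, a membrane protein of autophagy that restrains STING, rose from 24.4 ± 1.52 to 36.8 ± 3.52 CPM (0.59 ± 0.08, adjusted p = 4.58e-07). Usp20, a deubiquitinase that stabilises STING, fell from 34.1 ± 0.914 to 19.5 ± 1.27 CPM (-0.80 ± 0.07, adjusted p = 9.73e-10). Sqstm1, the p62 receptor that carries ubiquitinated STING to autophagosomes, fell from 632 ± 36.8 to 411 ± 28.0 CPM (-0.62 ± 0.06, adjusted p = 5.06e-09). With library size alone as the scaling, 5 of this list rose instead of 8. Without knockout replicate 3, 10 rose, as Sec24c and Tmed2 also passed.

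Among cofactors of cGAS and other DNA sensors, 5 of 13 tested rose, 3 fell and 5 did not pass (median log2 fold change 0.08). Ifi204, a DNA-binding relative of IFI16, rose from 24.8 ± 1.32 to 43.4 ± 3.15 CPM (0.81 ± 0.07, adjusted p = 8.48e-10), and Banf1, a chromatin protein that keeps cGAS off nuclear DNA, from 103 ± 2.56 to 131 ± 8.72 CPM (0.35 ± 0.06, adjusted p = 6.3e-06). G3bp1, a stress granule protein that aids cGAS binding to DNA, fell from 377 ± 8.0 to 256 ± 6.82 CPM (-0.56 ± 0.05, adjusted p = 1.33e-09). Aim2, an inflammasome DNA sensor, fell from 6.96 ± 0.874 to 3.65 ± 0.816 CPM (-0.95 ± 0.15, adjusted p = 1.16e-05). The third gene that fell was Prkdc, the catalytic subunit of DNA-PK (-0.34 ± 0.07, adjusted p = 0.000185).

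Of 9 tested carriers, channels and hydrolases of cyclic dinucleotides, 1 rose, 4 fell and 4 did not pass (median -0.17 on the log2 scale). Slc19a1, the reduced folate carrier that also imports cyclic dinucleotides, fell from 43.8 ± 2.45 to 27.2 ± 2.37 CPM (-0.68 ± 0.07, adjusted p = 1.63e-08). Lrrc8c, a subunit of the volume-regulated anion channel that passes cGAMP, fell from 71.2 ± 1.45 to 47.6 ± 3.40 CPM (-0.58 ± 0.06, adjusted p = 1.42e-08), and Lrrc8b, another subunit, fell by 0.41 on the log2 scale (adjusted p = 0.000184). The fourth gene that fell, the ATP-gated channel P2rx7, was near the floor in the knockout, at 2.30 ± 0.572 and 0.470 ± 0.187 CPM. Slc46a3, a lysosomal solute carrier, rose from 0.948 ± 0.294 to 2.48 ± 0.235 CPM. Lrrc8a, the obligatory channel subunit, had 15.8 ± 0.872 and 14.1 ± 0.393 CPM (adjusted p = 0.0742). Risers numbered 2 without knockout replicate 1, when Lrrc8d also passed (adjusted p = 0.0187), and 2 without knockout replicate 2, when the exporter gene Abcc1 did (adjusted p = 0.0207).

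Nucleases that clear self nucleic acid, and sensors of RNA, gave no riser in either list. Of 10 tested clearance genes, 6 fell and 4 did not pass (median log2 fold change -0.31), and of 9 tested RNA and Toll-like receptor sensors and adaptors, 5 fell and 4 did not pass (median -0.29). Dnase2a, the lysosomal DNase, fell from 18.9 ± 2.05 to 11.3 ± 2.00 CPM (-0.73 ± 0.11, adjusted p = 3.6e-06), and Pld3, a lysosomal exonuclease, from 60.0 ± 3.25 to 44.7 ± 3.65 CPM (-0.42 ± 0.07, adjusted p = 5.66e-06). Both genes of RNase H2 that fell, Rnaseh2a and Rnaseh2c, changed by -0.20 and -0.32, while the third subunit, Rnaseh2b, had a log2 fold change of 0.16 and did not pass (adjusted p = 0.166). Ifih1, the RNA sensor MDA5, fell from 5.58 ± 1.24 to 2.15 ± 0.320 CPM (-1.38 ± 0.18, adjusted p = 4.26e-07), and Mavs, its mitochondrial adaptor, from 61.8 ± 2.60 to 49.8 ± 1.65 CPM (-0.31 ± 0.06, adjusted p = 4.72e-05). Rigi, the other RNA helicase sensor, had a log2 fold change of 0.03 ± 0.07 and did not pass (adjusted p = 0.754). Clearance genes gained 1 riser without knockout replicate 1, which was Rnaseh2b (adjusted p = 0.0313, and between 0.0313 and 0.516 across alternatives).

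**Figure D3:**
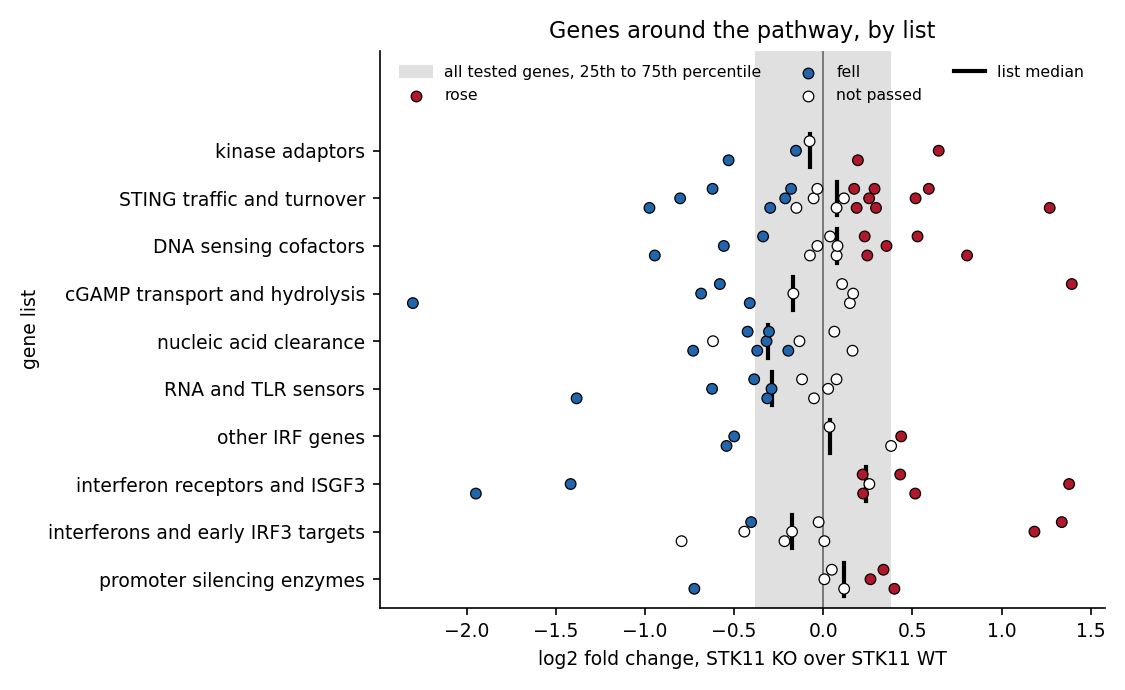
Log2 fold change (STK11 KO over STK11 WT) of the 94 tested genes in 10 lists around the pathway. Points are genes, coloured by whether they rose, fell or did not pass edgeR's test, bars are list medians, and shading spans the 25th to 75th percentile of all tested genes. Nucleic acid clearance (median -0.31) and RNA sensing (-0.29) hold no riser, and the other lists hold genes moving both ways.

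Genes of interferon receptors and their signalling moved both ways. Of 8 tested genes of receptors, kinases and STATs, 5 rose, 2 fell and Stat2 did not pass (median log2 fold change 0.24). Tyk2, a kinase of the type I and III receptors, had 108, 113, 125 and 114 CPM in parental and 41.3, 41.1, 48.0 and 41.8 CPM in knockout libraries. Its log2 fold change was -1.42 ± 0.06 (SE, adjusted p = 8.13e-15). Ifnlr1, the specific chain of the type III receptor, fell from 13.3 ± 0.790 to 3.42 ± 0.587 CPM (-1.95 ± 0.12, adjusted p = 2.91e-12). Ifnar1, a chain of the type I receptor, rose from 60.3 ± 1.11 to 81.5 ± 6.90 CPM (0.43 ± 0.06, adjusted p = 1.72e-06), and Jak1 from 166 ± 4.41 to 194 ± 11.8 CPM (0.22 ± 0.05, adjusted p = 0.000838). Ifnar2 and Il10rb also rose, by 0.22 and 1.38 on the log2 scale. Without knockout replicate 3, Stat2 passed with a log2 fold change of 0.39 (adjusted p = 0.000324), beside 0.26 with it. The rise of Ifnar2 did not pass without knockout replicate 3 (adjusted p = 0.0745) or parental replicate 1 (0.0552), and across alternatives its adjusted p lay between 0.0127 and 0.153. Of 5 other interferon regulatory factors tested, Irf9, the DNA-binding subunit of ISGF3, rose from 8.89 ± 0.838 to 12.1 ± 0.942 CPM (0.44 ± 0.10, adjusted p = 0.000617). Irf1 fell from 30.1 ± 0.647 to 20.7 ± 1.37 CPM (-0.54 ± 0.07, adjusted p = 5.64e-07). Irf2 and Irf5 did not pass, and without parental replicate 1 Irf5 passed with a log2 fold change of 0.71 (adjusted p = 0.00852, and between 0.00852 and 0.472 across alternatives).

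At the output end, mRNA of the interferon genes in the list was at or near 0 in both genotypes. Other interferon genes were not in the list. Ifna2, Ifna4, Ifnl2 and Ifnl3 had 0 counts in all 8 libraries, and Ifnb1 had 0 counts in the parental libraries and 1 count each in knockout replicates 1 and 4. Of 9 tested interferon-inducible genes and early IRF3 targets, 2 rose, 1 fell and 6 did not pass (median log2 fold change -0.17). Oasl1, an interferon-inducible OAS-like protein that represses translation of Irf7, had 24.9, 22.9, 24.3 and 22.5 CPM in parental and 65.8, 54.4, 38.4 and 57.3 CPM in knockout libraries. It rose in every knockout library, least in replicate 3, with a log2 fold change of 1.18 ± 0.14 (SE, adjusted p = 1.37e-05). Ifi44 rose from 0.326 ± 0.0921 to 0.840 ± 0.215 CPM (adjusted p = 0.00199).

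None of the other tested outputs rose. Usp18, an interferon-induced deISGylase, fell from 4.24 ± 0.209 to 3.25 ± 0.717 CPM (-0.40 ± 0.16, adjusted p = 0.0322). It did not pass without knockout replicate 3 (log2 fold change -0.23, adjusted p = 0.165) or without parental replicate 1, 3 or 4 (adjusted p = 0.0538, 0.0597 and 0.0728), and across alternatives its adjusted p lay between 0.0111 and 0.165. The chemokine Cxcl10, which attracts T cells, had 7.19, 5.75, 7.29 and 5.62 CPM in parental and 6.64, 2.97, 1.36 and 4.45 CPM in knockout libraries. Its values overlapped and did not pass (log2 fold change -0.79 ± 0.38, adjusted p = 0.0938). Without knockout replicate 3 it was -0.47 and passed (adjusted p = 0.0479), and without knockout replicate 1 it was -1.18 and passed (adjusted p = 0.00127). With every library kept, Cxcl10 also passed by limma-voom (log2 fold change -1.02, adjusted p = 0.00355), by limma on the deposited values (0.0116) and with library size alone as the scaling (0.0437). Over all alternatives its adjusted p ranged from 0.00127 to 0.209. Ccl5, another chemokine, had 13.5, 15.9, 13.3 and 12.2 CPM in parental and 13.4, 10.8, 5.55 and 11.2 CPM in knockout libraries (log2 fold change -0.44 ± 0.22, adjusted p = 0.0957), and its lowest library was again knockout replicate 3. Without that library the log2 fold change of Ccl5 was -0.22 (adjusted p = 0.0668), and without knockout replicate 1 it was -0.60 and passed (adjusted p = 0.0212). With every library kept, Ccl5 also passed by limma-voom (adjusted p = 0.0143), by limma on the deposited values (0.0305) and with library size alone (0.0232). It passed as well without the low-count filter (0.00279) and with the replicate block (0.0209). Across alternatives its adjusted p lay between 0.00279 and 0.199. Isg15 was at 1.57 ± 0.172 and 1.61 ± 0.575 CPM. Within the knockout group, replicate 3 had the lowest level in 8 of the 9 tested outputs, as it had for Irf7. How often that library was the lowest over all tested genes was not counted, so this count has no background share beside it. Over the alternatives, some of which test more of the 19 listed genes, 1 to 3 genes of the list rose and 0 to 4 fell, so its counts depend on the setting.

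**Figure D4:**
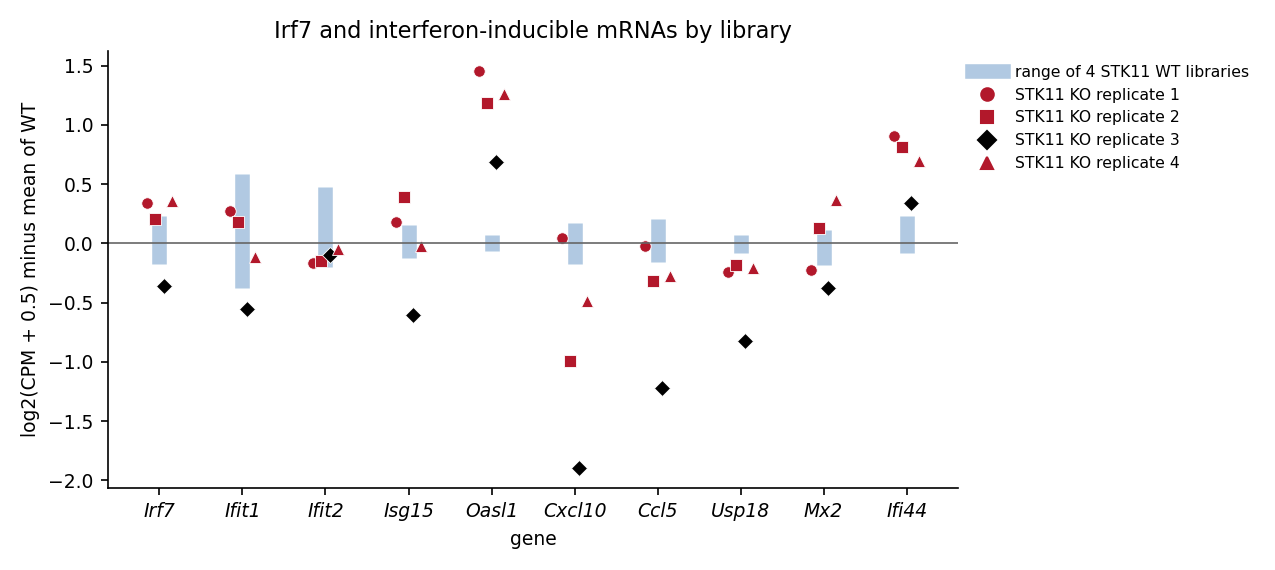
Difference of log2(CPM + 0.5) from the STK11 WT mean for Irf7 and the 9 tested interferon-inducible genes in each STK11 KO library (points), with the range of the 4 STK11 WT libraries as bars. Knockout replicate 3 (black diamonds) is the lowest knockout library for Irf7 and for 8 of the 9 other genes, a share not counted over all tested genes. Oasl1 lies above the parental range in all 4 knockout libraries.

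Enzymes that methylate DNA or histone H3 at promoters, together with partner proteins of these enzymes, were the last list. Enzymes of both kinds, though not necessarily each listed gene, have been described as acting on the STING gene in human LKB1-deficient lung cancer cells. Of 7 tested, 3 rose, 1 fell and 3 did not pass (median log2 fold change 0.12). Dnmt1, the maintenance methyltransferase, rose from 132 ± 4.99 to 173 ± 9.44 CPM (0.40 ± 0.05, adjusted p = 8.4e-07), and Ezh2, the catalytic subunit of PRC2, from 63.0 ± 3.24 to 79.6 ± 5.21 CPM (0.34 ± 0.06, adjusted p = 3.65e-05). Dnmt3a rose from 26.3 ± 1.83 to 31.6 ± 2.93 CPM (adjusted p = 0.0043), a call lost with library size alone as the scaling (log2 fold change 0.18, adjusted p = 0.0514), and Dnmt3b fell from 1.66 ± 0.191 to 1.00 ± 0.263 CPM (adjusted p = 0.00895). Uhrf1, the partner of Dnmt1, had 98.0 ± 3.8 and 98.5 ± 6.18 CPM (adjusted p = 0.927), and the PRC2 subunits Eed and Suz12 did not pass. Without knockout replicate 1, Eed passed (log2 fold change 0.15, adjusted p = 0.0379).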

How the data were processed

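RNA of 4 parental and 4 Stk11-targeted Lacun3 cultures was sequenced from 100 ng of total RNA with a stranded mRNA kit as paired reads of 51 bp (labels' protocols). Tools named in the submitters' processing notes, without roles, are limma, edgeR, featureCounts 1.6.0, STAR 2.7.9a and FastQC 0.11.8, with the build GRCm39. No source used here gives the strand setting or the handling of reads on several genes. Raw counts of 56884 genes were deposited by the authors, and so was a table of voom log2 CPM values for 15726 genes, which served 1 alternative.

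Counts were fitted in edgeR 4.0.16 (R 4.3.3; robust quasi-likelihood, TMM scaling, default low-count filter) with genotype as the sole term, and p-values were adjusted by Benjamini-Hochberg over 13707 genes. Log2 fold changes are knockout over parental, with SE as the absolute value over the square root of F. Values are mean ± SD of 4 libraries. Ratios were compared by exact permutation over 70 assignments (scipy 1.17.1). Of 6 ratios planned, those with Trex1 could not be computed. Exon lengths and overlaps came from GENCODE M21 (GRCm38), matched by identifier, since the counts' build was not in the reference used. The edgeR steps were tested on simulated data.

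Named list genes are up to 2 risers and 2 fallers of smallest adjusted p with at least 5 CPM in the higher genotype, plus genes needed to explain small counts. The Rnaseh2 subunits, Isg15, Cxcl10 and Ccl5 were named after their values were seen. Some genes of the lists are counted but not reported here by name. The members and lists were chosen with earlier results of these data known. Alternatives were other scalings (DESeq2 1.42.0 size factors, upper quartile, library size alone), 2 filters, DESeq2, limma-voom (limma 3.58.1), limma on the deposited log2 values, edgeR's legacy quasi-likelihood (added after seeing the data), the replicate number as a block, and leaving out each library. All 8 libraries were used.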

Additional observations from a re-analysis of the deposited data

Results flagged for a closer look

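Of 24 groups of 4 libraries examined (8 members and 4 ratios in each genotype), 2 held a library far from the other 3, where chance flags about 1 in 20. Both came from parental replicate 3. Its Sting1 level of 14.8 CPM lay below the other parental libraries (17.4 to 17.8 CPM), with a gap of 0.867 of the group's range, above Dixon's critical value at 95%. Without that library the log2 fold change of Sting1 was -0.34 (edgeR quasi-likelihood test, adjusted p = 0.00254), beside -0.28 with it. Its Enpp1 to Cgas ratio of 2.47 lay above the others (1.97 to 2.05), with a gap of 0.842. Without it the log2 difference of the ratio was -0.72, beside -0.79 with it.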

How the results depend on the processing

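Over the 18 alternatives to the edgeR fit, the number of members that fell was 5 throughout, and the number that rose was 2 in all but 1: with library size alone as the scaling it was 1, since Ikbke no longer passed. The other member log2 fold changes kept their direction and their side of the threshold in all 18 alternatives, with ranges of -0.60 to -0.45 for Cgas, -1.39 to -1.27 for Enpp1, -0.36 to -0.23 for Sting1, 0.17 to 0.28 for Tbk1, -0.33 to -0.22 for Irf3, 0.06 to 0.32 for Irf7 and -1.30 to -1.20 for Samhd1. Over all tested genes, 3921 to 5079 were higher and 4311 to 5280 lower. With the replicate number as a replicate block, 5 members fell and 2 rose. Same-numbered libraries did not deviate together (correlations of -0.12 to 0.04 over genes, beside -0.13 to 0.14 for differently numbered ones). No effect shared by number was thus seen, which cannot show whether the cultures were handled in pairs. Paired by number, the Enpp1 to Cgas and Sting1 to Cgas differences of -0.79 and 0.23 had an exact sign-flip p of 0.125, the smallest that 4 pairs allow. The Ikbke to Tbk1 log2 difference was -0.0413 and lay between -0.0765 and 0.0170 when single libraries were left out, changing sign without parental replicate 3. Of 360 recomputed list counts, 28 moved by over 1.5 times, all but 1 of them where 2 or fewer genes had passed. Cgas and Irf7, with the fewest counts, had the widest intervals of the tested members. How Trex1 reads were counted was not tested.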
